A study of Mus musculus with 8 samples.

Results

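The comparison described here was between livers of mice given carbon tetrachloride (CCl4) for 4 weeks and for 1 week, across every small RNA assay with a determined threshold cycle (Ct) on all 4 of these cards. By that rule, 175 of the 381 assays listed for the TaqMan Array Rodent MicroRNA A card entered the comparison. No measured difference was used to choose them. A further 86 assays had a Ct on some of the 4 cards only and 120 had none on these cards.

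Total liver RNA came from female C57B6 mice that were 4 weeks old when treatment began. Groups were untreated mice and mice injected intraperitoneally with CCl4 in corn oil for 1, 4 or 8 weeks, with 2 cards a group and 8 cards in all. No vehicle injection is given in the labels for the untreated mice. The labels give the dose as 1 mg/kg, whereas the study's methods give the same figure in ml/kg. CCl4 is activated by hepatocytes to a radical that kills the cells around the central vein, so a first week of injections gives acute injury and repair, and continued injections give scarring. At 4 weeks the mice were also older than at 1 week, and age and duration of treatment cannot be told apart. The labels do not say that replicates were separate mice, so p-values measure only the spread between cards, and since no run is given for any card, run and time of treatment cannot be told apart.

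MicroRNAs (miRNAs) are short RNAs that pair with target messenger RNAs mainly through bases 2 to 8, the seed, and lower their translation and stability. MicroRNAs with the same seed form a family with overlapping targets. In liver, miR-122 and miR-192 are made mostly by hepatocytes, miR-126 by endothelial cells, miR-142 and miR-223 by blood cells, and miR-199a and miR-214 by stellate cells and fibroblasts. The miR-29 family targets collagens and other matrix genes. In whole liver, fewer cells of a type and less RNA per cell cannot be told apart.

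Mature sequences are shown for families whose members moved together or apart and for single miRNAs with large differences. They were taken from RefSeq (GRCm38.p6), in which 144 of the 175 assays were matched by name. For assays named without an arm, the arm that traditionally carried the plain name was used, which the deposited table does not state. Capitals mark the seed, and each sequence runs 5′ to 3′. The first 5 are let-7 members with 1 shared seed, the next 3 belong to the miR-15/16 family, then come the seed pairs miR-192 with miR-215 and miR-221 with miR-222, the miR-29 family, 3 miRNAs of the Dlk1-Dio3 region, and 5 single miRNAs or arms.
let-7c: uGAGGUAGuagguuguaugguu
let-7b: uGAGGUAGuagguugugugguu
let-7a: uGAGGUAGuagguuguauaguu
let-7f: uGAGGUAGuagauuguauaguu
let-7g: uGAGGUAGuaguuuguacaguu
miR-15b: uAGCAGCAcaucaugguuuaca
miR-497: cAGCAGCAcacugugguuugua
miR-16: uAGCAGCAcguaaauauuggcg
miR-192: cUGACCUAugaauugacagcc
miR-215: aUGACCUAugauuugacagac
miR-221: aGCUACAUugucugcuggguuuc
miR-222: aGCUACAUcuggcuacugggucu
miR-29a: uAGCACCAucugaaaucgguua
miR-29b: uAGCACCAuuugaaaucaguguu
miR-29c: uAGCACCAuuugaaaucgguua
miR-410: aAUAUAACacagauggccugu
miR-409-3p: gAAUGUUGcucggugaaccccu
miR-411: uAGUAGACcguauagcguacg
miR-203: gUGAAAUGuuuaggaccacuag
miR-324-5p: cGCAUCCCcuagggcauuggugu
miR-142-3p: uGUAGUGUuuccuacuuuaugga
miR-339-5p: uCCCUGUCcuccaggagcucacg
miR-339-3p: uGAGCGCCucggcgacagagccg

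Levels are on a log2 scale: each Ct was subtracted from its card's mean Ct over 168 assays, those determined on all 8 cards, so a higher value is more RNA and a difference of 1 is a doubling at full PCR efficiency. Mean Ct over these 168 assays was 29.2 and 29.1 on the 1-week cards and 28.8 and 30.4 on the 4-week cards. The second 4-week card was the faintest of the series, with 193 assays determined, and the other 7 cards had 205 to 235. The hepatocyte marker miR-122 had a Ct of 24.16 and 23.60 at 1 week and of 22.80 and 23.69 at 4 weeks.

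Between 1 and 4 weeks, 7 of 9 let-7 miRNAs rose and 9 of 15 determined miRNAs of the Dlk1-Dio3 imprinted region fell. Of 5 hepatocyte miRNAs, miR-192, miR-194 and miR-802 fell, and miR-122 at 1.08 and miR-148a at -0.60 were not called. Both arms of the endothelial miR-126 also fell. Of the 175 assays, 77 were called (44%) by limma at an adjusted p of 0.05, with 38 higher at 4 weeks (21.7%) and 39 lower (22.3%). Differences ran from -5.17 to 4.30, with a median of -0.01 and quartiles of -0.98 and 1.07. A difference of at least 1 in size was seen for 90 assays, of which 74 were called. The median gap between cards of 1 group was 0.31 at 1 week and 0.46 at 4 weeks.

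With 2 cards against 2, no single-assay exact test can go below a p of 0.333, so calls rest on the spread that limma pools over assays. Cards of the 2 times did not overlap for 135 assays (77.1%), which include all 77 called and 58 that were not called. Centring on U6, snoRNA135 and snoRNA202 in place of the card mean moved the median difference to 0.76 and the split of calls to 69 higher and 18 lower. The direction of this shift came from U6 alone, which fell by 3.77 in the card-mean fit, whereas snoRNA135 and snoRNA202 were above 0. No assay called in the card-mean fit changed sign with that centring. Leaving out either 1-week card or the faint 4-week card reduced the calls to 23, 31 and 30.

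**Figure D1:**
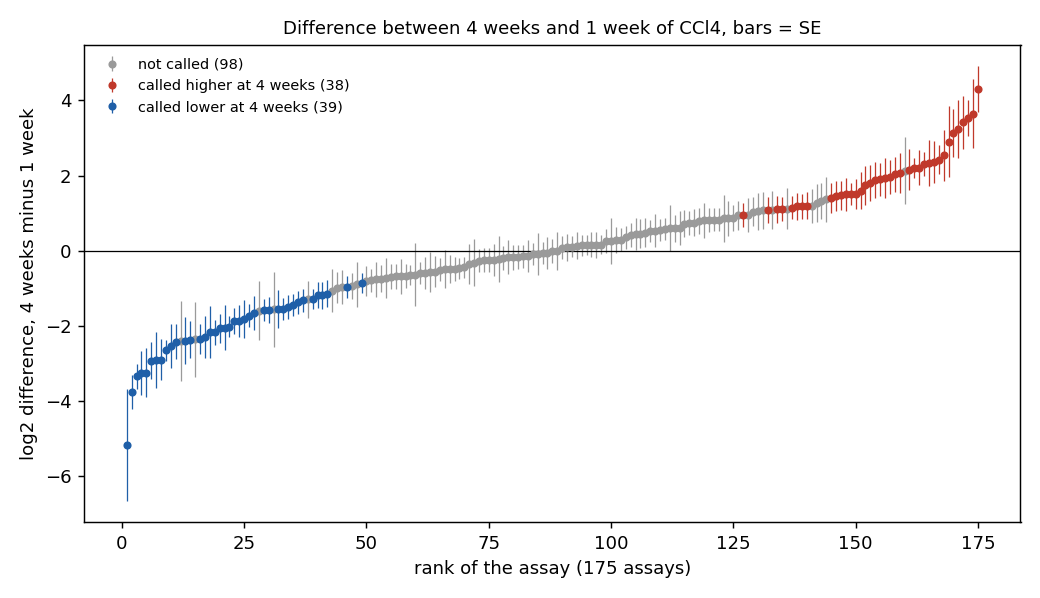
Log2 difference between 4 weeks and 1 week of CCl4 (vertical axis) for the 175 assays in order of size (horizontal axis), with bars of 1 SE from limma. Red points are the 38 assays called higher at 4 weeks, blue the 39 called lower and grey the rest, and the differences run from -5.17 to 4.30.

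The 12 largest rises included 2 members of let-7 and the blood cell miRNA miR-142-3p. The largest was miR-685, whose value was -2.77 and -3.15 on the 1-week cards and 1.39 and 1.29 on the 4-week cards. Untreated cards lay near the 1-week cards, at -2.0 and -2.51, and the 8-week cards were at -3.59 and -1.60. The difference was 4.30 ± 0.60 (SE, 2 cards a group), a fold of 19.8 with an adjusted p of 0.00345 by limma.

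For miR-324-5p, which has been studied as a repressor of Hedgehog signalling, the 1-week values were -5.62 and -6.89 and the 4-week values -2.94 and -2.52. Both untreated cards, at -4.86 and -3.99, were between the groups. The difference was 3.53 ± 0.49 (SE), an 11.6-fold rise (adjusted p = 0.00345 by limma). Its 1-week signals were late, with a Ct of 34.87 and 35.96. On the same cards miR-7a, a miRNA best known from endocrine cells and neurons, was at -6.55 and -5.87 at 1 week and at -4.00 and -3.58 at 4 weeks. Here the untreated cards, at -3.61 and -4.38, were level with the 4-week cards and the rise was 2.42 ± 0.39 (SE, adjusted p = 0.00662), a call lost without normalization. The Ct of miR-7a at 1 week was also late, at 35.8 and 34.94.

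The value of miR-142-3p was 0.68 and 0.60 at 1 week and 3.23 and 2.66 at 4 weeks, a rise of 2.31 ± 0.32 (SE, adjusted p = 0.00345). Untreated cards were at 1.07 and 0.91 and the 8-week cards at 1.96 and 1.54. This call, too, was lost without normalization. Of the others, miR-328 rose by 3.64, miR-744 by 3.13, miR-197 by 2.90, miR-183 by 2.53, the Ro-associated Y1 RNA by 2.36 and miR-181a, a miRNA of lymphocytes, by 2.34. Adjusted p-values of these 6 were between 0.0115 and 0.0414. At 1 week the Ct was 35 and 35.98 for miR-183 and 33.55 and 36.02 for miR-197. Without either 1-week card, miR-328, Y1 and miR-181a were not called, and without the second 4-week card none of the 6 was. Also not called were miR-744 without the first 1-week card, miR-197 and miR-183 without the second, and miR-197 without the first 4-week card. With undetermined values set to Ct 40 none of the 6 was called. The call of miR-197 was lost under 5 alternatives in all, the block for the replicate number among them, and that of miR-183 under 3.

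The largest fall was that of miR-133a, a skeletal and heart muscle miRNA. It had the largest error of the 175 assays, with -1.62 and 2.29 at 1 week and -4.53 and -5.15 at 4 weeks, with untreated cards at -4.73 and -1.70. The difference was -5.17 ± 1.49 (SE, adjusted p = 0.029). It was not called without the second 1-week card, at -3.21, or without either 4-week card, or with undetermined values set to Ct 40. Another muscle assay, rno-miR-1, had a Ct on both 1-week cards (35.61 and 32.10) and on neither 4-week card. It was also determined on 1 untreated card, at 33.37, and on both 8-week cards, at 32.98 and 35.16.

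The skin-enriched miR-203 gave 1 of the tightest falls. Values of 3.15 and 2.91 at 1 week were level with 2.91 and 2.90 in untreated liver, and both 4-week cards were far lower, at 0.32 and 0.41. The difference was -2.66 ± 0.27 (SE, adjusted p = 0.0017), a 6.32-fold fall, and on the 8-week cards the values were 1.79 and 1.55.

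The inflammation-induced miR-146b was highest at 1 week. It stood at 4.61 and 4.35 then, against 2.69 and 1.41 at 4 weeks, with untreated cards at 0.57 and 1.23. It fell by 2.43 on the log2 scale (SE 0.48, adjusted p = 0.0102), and was not called without the first 1-week card. The other large falls outside the Dlk1-Dio3 region were those of U6 (-3.77), miR-186 (-3.27) and miR-138 (-3.25), the last a miRNA known from neurons. The call of miR-138 was lost with undetermined values set to Ct 40 and without the first 1-week card.

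**Figure D2:**
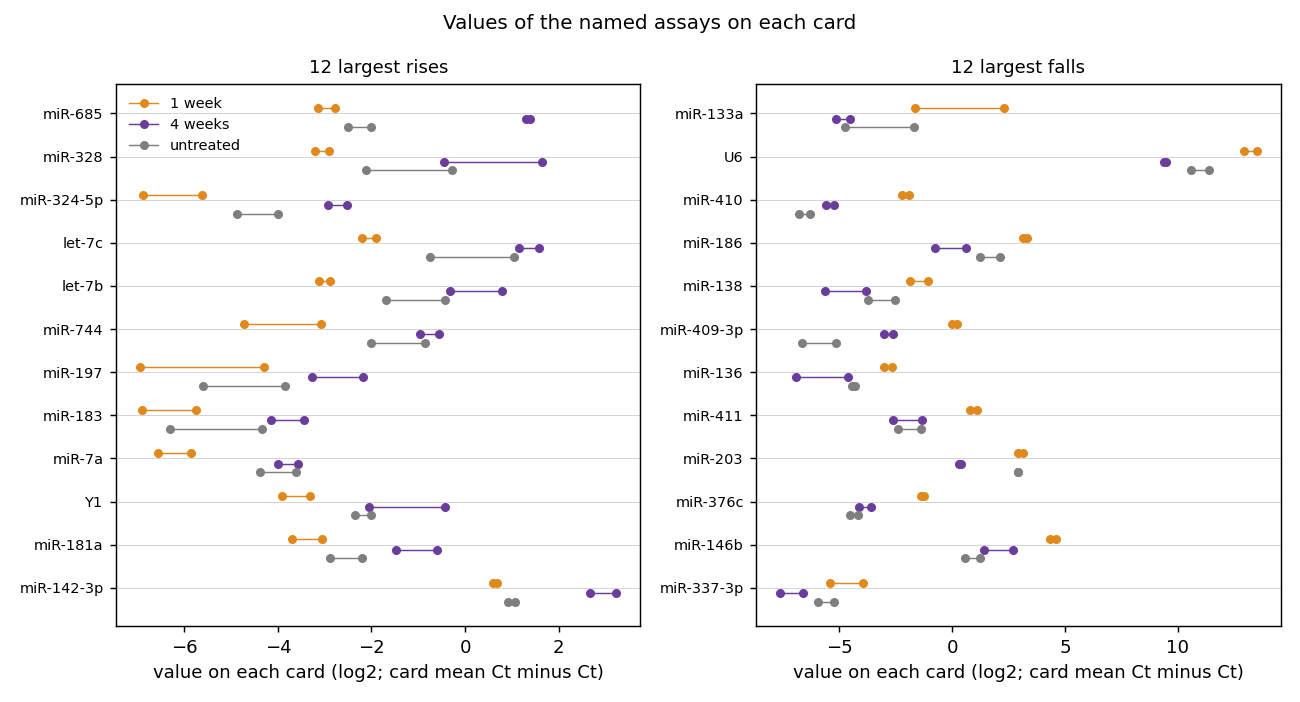
Values on each card (horizontal axis, log2, card mean Ct minus Ct) of the 12 assays with the largest called rises (left) and falls (right), with 1-week cards in orange, 4-week cards in purple, untreated cards in grey and a line joining the 2 cards of a group. The 1-week and 4-week cards are separate for all 24 assays by the rule that chose them, and the grey points lie between them, beside either group, or outside both.

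The let-7 family, which promotes differentiation and restrains proliferation, had all 9 of its assays on the card determined. Of these, 7 rose (against 21.7% of all assays), none fell and 2 were not called, and the median difference was 1.73 against -0.01 over all assays. With each other centring tried, the family's median stayed above 0, between 1.29 and 2.51. Relative to untreated liver the family's median was -1.52 at 1 week and 0.27 at 4 weeks.

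Values of let-7c were -2.19 and -1.90 at 1 week and 1.15 and 1.58 at 4 weeks. Untreated cards were at 1.05 and -0.74. The difference was 3.41 ± 0.72 (SE), a fold of 10.7 (adjusted p = 0.0115 by limma). For let-7b the 1-week values of -3.12 and -2.89 became -0.32 and 0.78, a rise of 3.24 ± 0.77 (SE, adjusted p = 0.0167).

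Of the members that rose, miR-98, which carries the let-7 seed, had the smallest error, with -4.47 and -4.89 at 1 week and -3.29 and -3.07 at 4 weeks, beside untreated cards at -3.29 and -3.03. It rose by 1.5 ± 0.29 (SE, adjusted p = 0.0102). The rises of let-7a, let-7e, let-7d and let-7i were 1.96, 1.92, 1.73 and 1.14, with adjusted p-values of 0.0152 to 0.029. The 2 exceptions were let-7f, with overlapping cards and a difference of 0.14, and let-7g, with 3.03 and 3.12 at 1 week and 2.76 and 2.40 at 4 weeks. Neither passed the test (adjusted p = 0.707 and 0.225). Without the first or second 1-week card or the second 4-week card, 1, 2 and 1 members were called, and the family's median stayed between 1.45 and 2.02 whichever card was left out. With undetermined values set to Ct 40, 6 of the 7 rises were not called, and without normalization 5 of the 7 were not.

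The Dlk1-Dio3 region on the mouse's distal twelfth chromosome holds one of the longest arrays of miRNA genes, expressed from the maternal chromosome, active in the embryo and low in adult liver. Of 43 assays for it on the card, 15 were determined on all 4 cards. Of these, 9 fell (against 22.3% of all assays), 2 rose and 4 were not called, with a median of -1.88 that stayed between -1.11 and -2.32 under the other centrings. The region's median relative to untreated liver was 2.14 at 1 week and 0.46 at 4 weeks.

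The largest fall of the region was in miR-410, from -2.22 and -1.89 at 1 week to -5.24 and -5.58 at 4 weeks. Untreated cards were lower still, at -6.76 and -6.29. The difference was -3.35 ± 0.33 (SE), a fold of 10.2 (adjusted p = 0.0017). The same order was seen for miR-409-3p, with 0.01 and 0.22 at 1 week and -3.02 and -2.62 at 4 weeks, with untreated cards at -6.65 and -5.12. It fell by 2.93 on the log2 scale (SE 0.50, adjusted p = 0.00819) and yet was 3.07 ± 0.50 above untreated liver at 4 weeks (adjusted p = 0.00626).

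For miR-411 the 1-week values of 0.79 and 1.10 fell to -1.33 and -2.60, which overlapped the untreated cards at -2.37 and -1.39. The difference was -2.91 ± 0.54 (SE, adjusted p = 0.00927). Falls also passed in miR-136 (-2.93), miR-376c (-2.54), miR-337-3p (-2.41), miR-376a (-2.18), miR-134 (-1.88) and miR-434-3p (-1.59), with adjusted p-values of 0.00927 to 0.0376. With 1 card left out, the difference ran from -4.08 to -1.77 for miR-136 and from -3.04 to -1.33 for miR-376a. For miR-134, 1 untreated card had no Ct and the fit used 7 cards. Leaving out the first or second 1-week card or the first 4-week card left 5, 3 and 5 of the 9 falls called, and leaving out the second 4-week card left 8. Centring on the control RNAs left 5 of them, no normalization 7 and undetermined values set to Ct 40 left 4.

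The rises in the region were of miR-494 and miR-667. Values of miR-494 were -2.75 and -2.83 at 1 week and -0.66 and -0.54 at 4 weeks, and the untreated cards, at -0.89 and -0.78, were level with 4 weeks. Its rise was 2.19 ± 0.27 (SE, adjusted p = 0.00266) and that of miR-667 was 2.03 ± 0.46 (adjusted p = 0.0152). Neither rise was called without normalization, and 1 was with undetermined values set to Ct 40, under quantile normalization, or without the first 1-week or second 4-week card. Among assays outside the 15, miR-431 was determined on both 1-week cards (Ct 32 and 31.82) and on no other card of the series, and miR-381 was determined on both 4-week cards (34.37 and 35.31) and neither 1-week card.

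**Figure D3:**
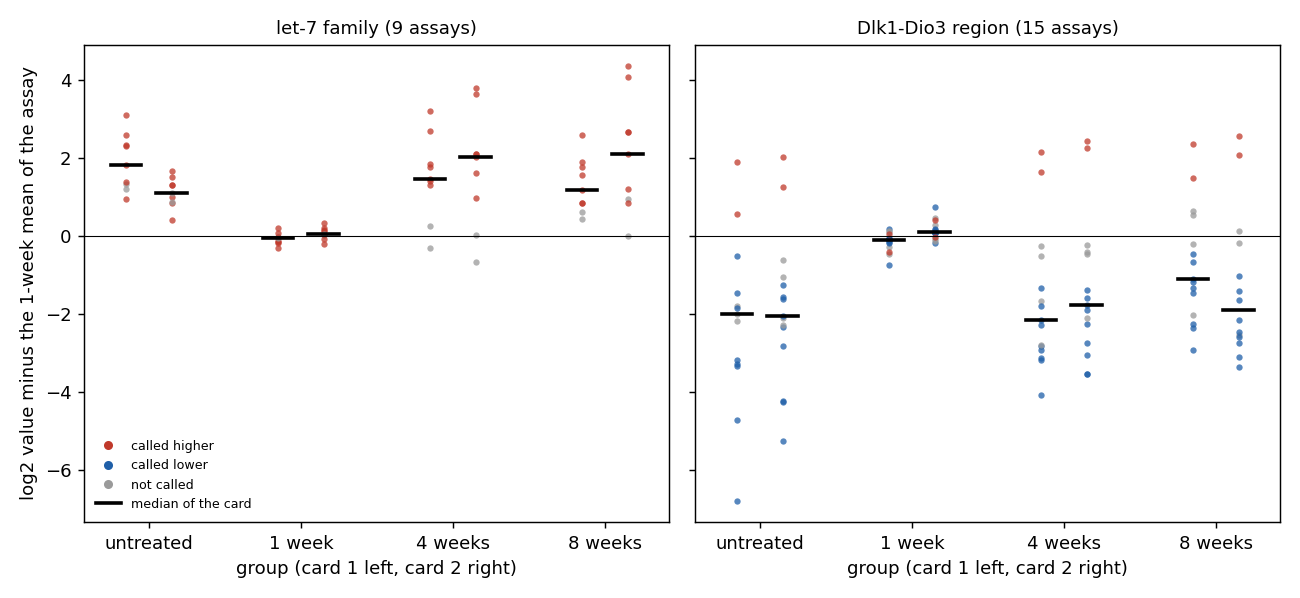
Values of the 9 let-7 assays (left) and the 15 assays of the Dlk1-Dio3 region (right) on each of the 8 cards, as log2 value minus the mean of the 1-week cards for that assay, with points coloured by the 4-week against 1-week call and a bar at the median of each card. Let-7 medians are near 0 at 1 week and above it on all other cards, and medians of the Dlk1-Dio3 region are below 0 on all cards other than those of 1 week.

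Among 5 hepatocyte-enriched miRNAs, 3 fell, none rose and the median difference was -1.46 (22.3% of all assays fell). The strongest was miR-192, a miRNA of liver, gut and kidney, with 6.97 and 6.93 at 1 week and 5.34 and 4.41 at 4 weeks, with untreated cards at 7.59 and 7.77. It fell by 2.07 on the log2 scale (SE 0.39, adjusted p = 0.00927). For miR-194, made from the same transcript, values went from 4.31 and 4.17 to 2.88 and 2.42 (difference -1.59 ± 0.34, adjusted p = 0.0125). For miR-802, which acts on glucose metabolism, they went from -1.71 and -1.95 to -3.11 and -3.47 (difference -1.46 ± 0.29, adjusted p = 0.0102), with untreated cards at -0.06 and 0.14.

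The other members did not pass. The most abundant hepatocyte miRNA, miR-122, was at 5.09 and 5.47 at 1 week and at 6.03 and 6.68 at 4 weeks, a difference in the other direction of 1.08 ± 0.50 (adjusted p = 0.119). It was called when centred on the control RNAs (1.85, adjusted p = 0.0203) and under quantile normalization (2.03, adjusted p = 0.0431), within a range of adjusted p over the alternatives of 0.0203 to 0.707. The difference of miR-148a was -0.60 (adjusted p = 0.121), and under quantile normalization it was called lower (-0.91, adjusted p = 0.024). Without the first 1-week card none of the 3 falls was called, and without the second 1-week card 2 and without the second 4-week card 1 were. Centred on the control RNAs or without normalization, only miR-192 of the 3 was called.

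Both arms of miR-126, the principal endothelial miRNA, fell. Values of miR-126-3p were 9.20 and 9.12 at 1 week, close to 8.43 and 8.92 in untreated liver, and 7.20 and 6.40 at 4 weeks. The difference was -2.36 ± 0.40 (SE, adjusted p = 0.00819) and that of miR-126-5p was -1.66 ± 0.45 (adjusted p = 0.0235). Under quantile normalization neither was called, with a difference of -0.69 for miR-126-3p. The call of miR-126-5p was also lost when centred on the control RNAs, without normalization, with undetermined values set to Ct 40, and without either 1-week card or the second 4-week card.

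In the miR-30 family, abundant in epithelial cells, 2 of 5 assays fell (22.3% of all assays fell) and none rose. The fall was from 4.55 and 4.45 to 2.45 and 2.78 for miR-30e (-1.88 ± 0.35, adjusted p = 0.00927) and from 6.04 and 6.12 to 4.88 and 4.71 for miR-30c (-1.28 ± 0.27, adjusted p = 0.0115). The family's median was -0.65. Centred on the control RNAs it was 0.12, and 2 of the 5 assays were then called higher and 1 lower. Neither fall was called without the first 1-week card, and 1 was without the second 1-week card or the second 4-week card. Without normalization neither was called, and 1 was under quantile normalization or when centred on all assays determined on the card or on the control RNAs. Of 3 assays of the miR-193 and miR-365 clusters, miR-193 fell by 2.31 and miR-193b by 1.32 (adjusted p = 0.0179 and 0.0161). Neither was called when centred on the control RNAs or with undetermined values set to Ct 40, and miR-193b was also lost under 2 other alternatives. Both calls were lost without the first 1-week card. That of miR-193b was also lost without the second 1-week or first 4-week card, and that of miR-193 without the second 4-week card. Relative to untreated liver at 1 week, miR-193b was 2.38 higher (adjusted p = 0.00434) and miR-193 was at -0.95 (adjusted p = 0.223). Among the epithelial miR-200 family, miR-429 fell by 2.06 (adjusted p = 0.029), a call lost under 4 of the alternatives, and 4 assays did not pass. In the miR-26 and miR-101 families, only miR-101a of 3 assays fell, by 1.56 (adjusted p = 0.0388), a call lost under 4 of the alternatives and without any 1 of the untreated, 1-week or 4-week cards. In the miR-23/24/27 clusters, miR-24 fell by 1.38 (adjusted p = 0.0139) and the other 3 determined assays were at 0.56 to 1.04 without passing, whereas centred on the control RNAs those 3 were called higher and miR-24 was not called. The call of miR-24 was also lost when centred on all assays determined on the card and without normalization. Without either 1-week card or the second 4-week card, neither miR-429 nor miR-24 was called. No assay passed in the families of miR-148 and miR-152 (3 assays), miR-103 and miR-107 (2), miR-130 and miR-301 (4) or miR-34 and miR-449 (2). Centred on the control RNAs, 2 of the 4 miR-130 and miR-301 assays and 1 of the 3 miR-148 and miR-152 assays were called higher. Under quantile normalization 1 of the miR-148 and miR-152 assays was called lower. With undetermined values set to Ct 40, 1 of 3 miR-34 and miR-449 assays was called lower.

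Of 8 leukocyte-enriched miRNAs, only miR-142-3p rose (21.7% of all assays rose), miR-146b and miR-150 fell (22.3% of all assays), and 5 did not pass, with a median of -0.47 that became 0.30 when centred on the control RNAs. The lymphocyte miRNA miR-150 was at 3.97 and 4.17 at 1 week and at 2.11 and 2.56 at 4 weeks, back to its untreated level of 2.05 and 2.46. It fell by 1.73 on the log2 scale (SE 0.32, adjusted p = 0.00927), a call lost without normalization. The myeloid miR-223 was at 5.97 and 5.51 at 1 week and at 6.69 and 6.43 at 4 weeks, a difference of 0.82 that did not pass (adjusted p = 0.0654). Over the alternatives the difference of miR-223 was 0.38 to 1.71, with adjusted p-values by limma down to 0.00544. Called rises in the list numbered 2 when centred on the control RNAs, under quantile normalization, with a trend in eBayes, or below Ct 32. Of the 6 miRNAs induced by injury and inflammation, miR-146b alone was called, the same assay that is counted in the leukocyte list. The value of miR-21 was 4.21 and 3.81 at 1 week and 4.90 and 4.69 at 4 weeks (0.79 ± 0.35, adjusted p = 0.105). Centred on the control RNAs or with a trend in eBayes, 2 of the 6 were called higher. Under quantile normalization or below Ct 32, 1 was. Over the alternatives the difference of miR-21 was 0.345 to 1.59, with adjusted p-values by limma down to 0.00544.

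All 4 determined mesenchymal assays were above 0, and 1 was called higher (21.7% of all assays were). Values of miR-214, a miRNA of stellate cells and fibroblasts, were 1.37 and 0.70 at 1 week and 1.89 and 2.37 at 4 weeks, with untreated cards at 0.68 and 0.30. It rose by 1.10 ± 0.37 (SE, adjusted p = 0.044), and the call was lost under 8 of the alternatives and whichever card was left out. Centred on the control RNAs, 3 of the 4 were called higher, with a median of 1.45 against 0.67. Its neighbour in the genome, miR-199a-3p, was at 0.84 and 1.27 and then at 2.26 and 1.59 (0.87 ± 0.35, adjusted p = 0.0779). Of the 2 erythroid assays, miR-451 rose by 1.51 (adjusted p = 0.0235) and miR-486 did not pass. The call of miR-451 was lost under 4 of the alternatives and without any 1 of the 1-week or 4-week cards.

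Of the 3 members of the miR-29 family, which share 1 seed, miR-29b rose (21.7% of all assays rose), and miR-29a and miR-29c were not called. Values of miR-29b were -3.69 and -4.87 at 1 week and -2.36 and -2.44 at 4 weeks, with untreated cards at -1.56 and -1.70, a rise of 1.88 ± 0.47 (SE, adjusted p = 0.0207). Its call was lost without normalization, with undetermined values set to Ct 40, and without the second 1-week card or either 4-week card. For the others, miR-29a was at 6.31 and 6.21 and then at 5.79 and 5.82 (-0.45 ± 0.29, adjusted p = 0.225), and miR-29c at 3.12 and 3.51 and then at 2.86 and 2.39 (-0.69 ± 0.33, adjusted p = 0.125). Centred on the control RNAs, miR-29a and miR-29c differed by 0.32 and 0.09. The difference between the members was not tested.

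Of 22 seeds held by at least 2 matched assays, 7 had rises only, 4 falls only, 8 no call and 3 both a rise and a fall. The first of the 3 was the seed AGCAGCA of the miR-15/16 family, which targets cell cycle genes. There miR-16 was at 8.28 and 8.11 at 1 week and at 6.16 and 5.46 at 4 weeks (-2.38 ± 0.49, adjusted p = 0.0115). With the same seed, miR-15b went from 0.32 and 0.91 to 2.00 and 2.42 (1.60 ± 0.48, adjusted p = 0.0321) and miR-497 from -1.82 and -2.02 to -0.92 and -0.55 (1.19 ± 0.36, adjusted p = 0.0321). The calls of miR-15b and miR-497 were lost without any 1 of the 1-week or 4-week cards. That of miR-16 was lost without the first 1-week card or the second 4-week card. The call of miR-497 was lost under 5 of the other alternatives, that of miR-15b under 3 and that of miR-16 under 2, with a difference of -1.18 for miR-16 under quantile normalization.

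For the seed UGACCUA, miR-215 rose by 1.47 ± 0.40 (adjusted p = 0.0235), from -3.50 and -3.96 to -1.78 and -2.75, while miR-192 fell. The call of miR-215 was lost under 6 of the alternatives and without either 1-week card or the first 4-week card, and that of miR-192 without the first 1-week card. For the seed GCUACAU, miR-221 was at -1.74 and -0.79 and then at -0.10 and -0.09, a rise of 1.17 ± 0.37 (adjusted p = 0.0376). Its cluster partner miR-222, which targets the same cell cycle inhibitors, fell from 4.30 and 4.24 to 3.37 and 3.43, by 0.87 on the log2 scale (SE 0.27, adjusted p = 0.0376). The call of miR-221 was lost under 7 of the alternatives and that of miR-222 under 8, and without the first 1-week card or either 4-week card neither was called. In the cluster of miR-183 and miR-182, miR-183 rose by 2.53 and miR-182 fell by 1.19 (adjusted p = 0.0323). The call of miR-182 was lost under 6 of the alternatives and without any 1 of the 1-week or 4-week cards. With a card left out its difference was between -1.57 and -0.80. Other families had rises only (21.7% of all assays rose): miR-125b-5p (2.06) and miR-99b (1.81) of 5 assays of the miR-99/100 and miR-125 families, miR-20a (1.45) and miR-93 (0.94) of 11 assays of the cluster of miR-17 and its paralogs, and miR-181a of 2 miR-181 assays. Neither miR-125b-5p nor miR-99b was called without normalization, with undetermined values set to Ct 40, or without either 1-week card or the second 4-week card. The call of miR-93 was lost under 8 of the alternatives and whichever card was left out, and that of miR-20a under 5 and without either 1-week card or the first 4-week card. Centred on the control RNAs, rises were called for 4 of the 5 miR-99/100 and miR-125 assays. With that centring, 5 of the 11 assays of miR-17 and its paralogs and both miR-181 assays were called higher.

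Arms of 1 hairpin were compared without any centring, since the gap between 2 assays on a card does not depend on it. Of 9 hairpins with both arms determined, the widest change was in miR-339. The value of its 5p arm minus that of its 3p arm was -5.02 and -4.65 on the 1-week cards and -1.31 and -0.31 on the 4-week cards. The 5p arm rose by 2.21 ± 0.46 (SE, adjusted p = 0.0115) and the 3p arm fell by 1.82 on the log2 scale (SE 0.51, adjusted p = 0.027). The call of the 3p arm was lost under 4 of the alternatives and without any 1 of the 1-week or 4-week cards, and that of the 5p arm under 2 and without the first 1-week or second 4-week card. Next was miR-142, for which the same gap was -4.56 and -4.08 at 1 week and -6.82 and -6.28 at 4 weeks, and whose 5p arm did not pass the test (0.08, adjusted p = 0.829). In the remaining 7 hairpins the gap moved by 1.34 or less.

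**Figure D4:**
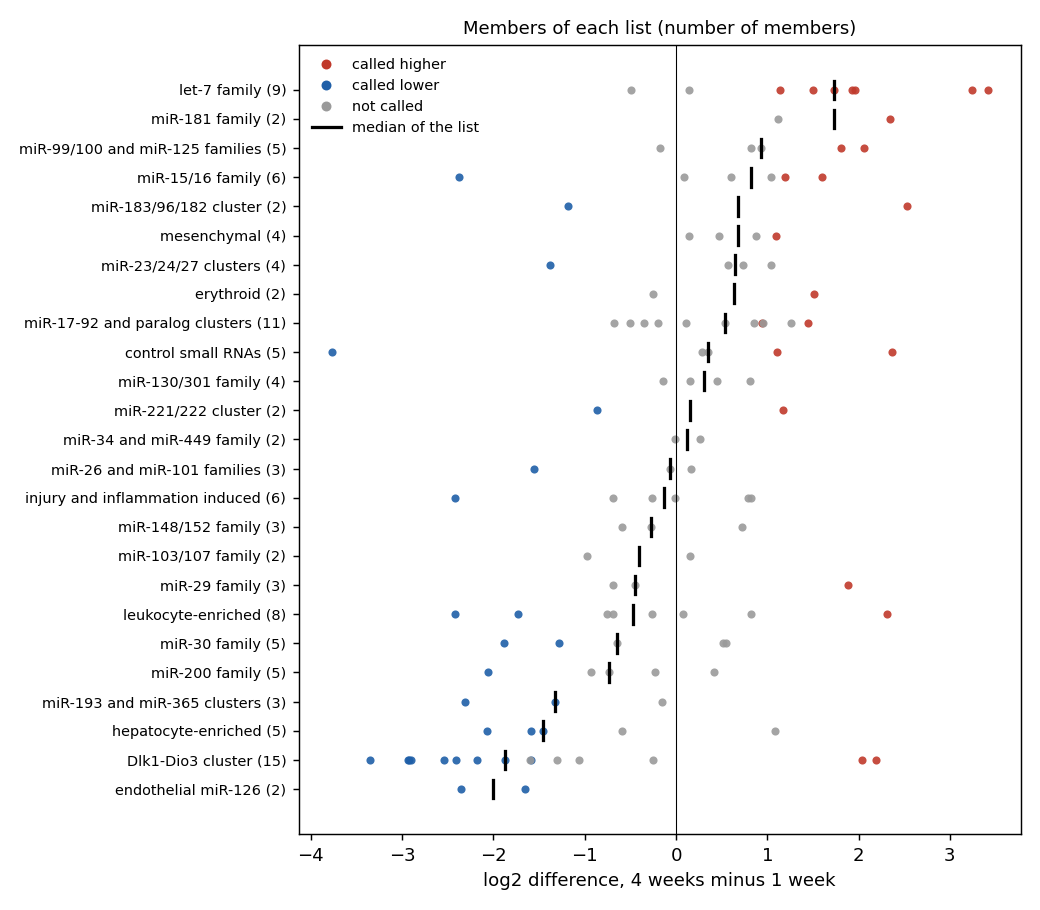
Log2 difference between 4 weeks and 1 week (horizontal axis) of each determined member of 25 lists of miRNAs or control RNAs (vertical axis, ordered by median, number of members in parentheses), with red for called higher, blue for called lower, grey for not called and a black bar at the median. The let-7 family has the highest median (1.73) and the pair of miR-126 arms the lowest (-2.01), and several lists hold calls on both sides of 0.

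The 5 control small RNAs on the card differed between the times in both directions. The spliceosomal U6 was at 13.49 and 12.90 at 1 week and 9.36 and 9.48 at 4 weeks, with untreated cards at 10.58 and 11.36. It fell by 3.77 on the log2 scale (SE 0.45, adjusted p = 0.00266). In the other direction Y1 rose by 2.36 (adjusted p = 0.0167) and snoRNA202 by 1.11 (adjusted p = 0.029), calls lost under 2 and 5 of the alternatives. Differences of snoRNA135 and U87 were 0.35 and 0.29 and did not pass (adjusted p = 0.378 and 0.455), and both fell below 0 when Ct values were used without centring. Scaling to 1 control RNA shifts all differences by that RNA's own difference.

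Set beside the untreated cards, which both comparisons share, 62 of the 175 assays were called at 1 week (35.4%) and 49 at 4 weeks (28%). Of the 38 assays that rose, 29 had an untreated mean between those of 1 and 4 weeks, 3 had one at or below the 1-week mean and 6 one at or above the 4-week mean. Of the 38 falling assays with both untreated values, the untreated mean was between the 2 times for 20, at or above the 1-week mean for 8 and at or below the 4-week mean for 10. The last kind included miR-409-3p, and the second kind included miR-802 at -1.87 at 1 week and -3.32 at 4 weeks (adjusted p = 0.00446 and 0.00104). At 1 week, let-7c was at -2.20 (adjusted p = 0.0496), miR-744 at -2.46 (0.025), miR-494 at -1.95 (0.00434) and miR-7a at -2.21 (0.0073) relative to untreated liver, and at 4 weeks none of these 4 was called, at 1.22, 0.67, 0.24 and 0.21.

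At 8 weeks both cards were on the 4-week side of the midpoint between 1 and 4 weeks for 23 of the 38 assays that rose and for 19 of the 39 that fell. Both were on the 1-week side for 2 and 9. For the rest, 13 and 11 assays, the 8-week cards were on either side.

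Gaps between replicate cards of the other groups ran along the same assays. Across 168 assays, the 4-week minus 1-week difference correlated with the value on 8-week card 2 minus that on card 1 (Pearson's r = 0.66, Spearman's rho = 0.64) and with untreated card 1 minus card 2 (r = 0.59, rho = 0.52). Neither gap shares a card with the difference. The direction of each gap was chosen after its sign was seen, and assays on a card share its RNA and run and are not independent. For the 12 largest rises these gaps had medians of 0.97 and 0.96, and for the 12 largest falls of -0.90 and -0.72.

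The 8-week gap was in the direction of the difference for 9 of the 12 rises and 10 of the 12 falls, and the untreated gap for 11 and 9. For let-7 the medians of the gaps were 0.90 and 0.83, for the Dlk1-Dio3 region -0.46 and -0.47, for the hepatocyte list -0.17 and -0.18, and for miR-126 -1.01 and -0.27, each smaller than the list's own 4-week minus 1-week median. This did not hold for every list. The injury and inflammation list had gaps of -0.57 and -0.54 beside a median of -0.14. In the cluster of miR-183 and miR-182 the untreated gap was 1.26 beside a median of 0.67. The part of whatever sets these replicate cards apart in the difference between the times was not tested.

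**Figure D5:**
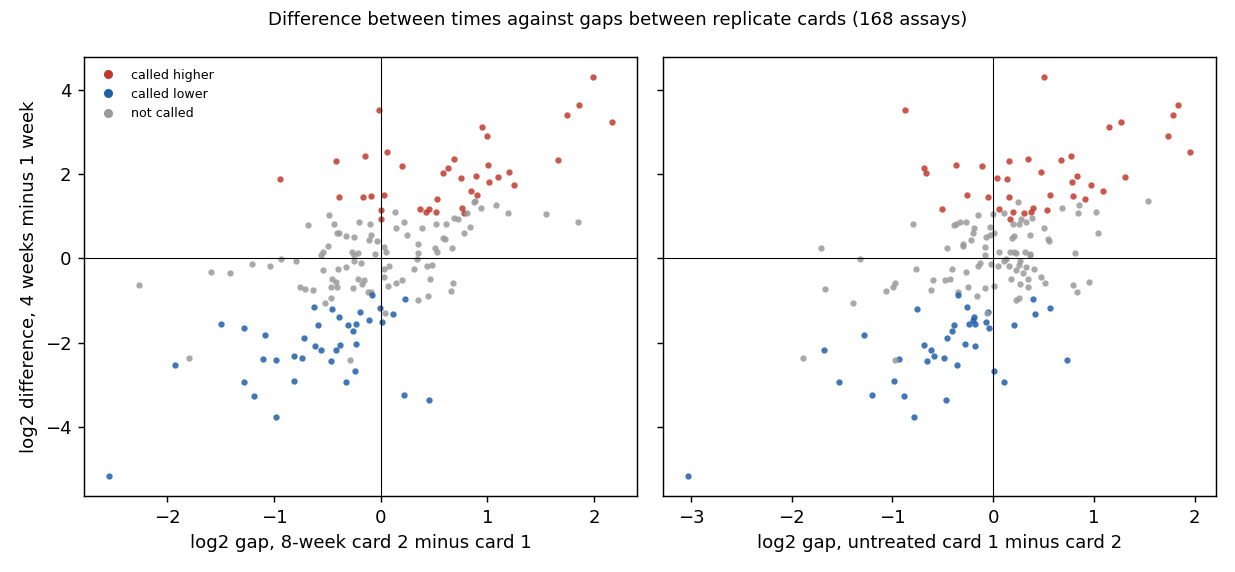
Log2 difference between 4 weeks and 1 week (vertical axes) against the log2 gap between the 8-week cards (left) and between the untreated cards (right) for the 168 assays determined on all 8 cards, coloured by call. Points run from lower left to upper right in both panels (r = 0.66 and 0.59).

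Detection itself differed for 10 assays. Both 1-week cards and neither 4-week card had a Ct for miR-431, miR-449a, miR-467c, rno-miR-1 and rno-miR-347, and the reverse held for miR-375, miR-381, miR-741, miR-135a and miR-546. Most were late signals. The islet miRNA miR-375 had a Ct of 34.03 and 33.75 at 4 weeks and of 33.29 and 32.79 in untreated liver. The earliest was miR-546 on the second 4-week card, at 31.63. For miR-449a, of the miR-34 seed family of ciliated epithelia, the 1-week values were 31.89 and 33.34, and the only other card with a Ct was an 8-week card at 36.04. These assays were not in the main fit. Only the alternative with undetermined values set to Ct 40, over 261 assays, held them.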

How the data were processed

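RNA was reverse transcribed without pre-amplification and run on the cards by the authors, who deposited raw Ct values, a log2 scale on which 1 cycle is a doubling, with blanks where no Ct was determined. No genome build applies. Another deposited table holds the authors' fold changes against untreated liver, made in DataAssist, and was not used here. Each Ct was subtracted from its card's mean over the 168 assays determined on all 8 cards. The 175 assays were fitted with limma 3.58.1 (R 4.3.3; lmFit and eBayes, all 8 cards, prior degrees of freedom 3.28), and p-values were adjusted by Benjamini-Hochberg over the 175, with calls at 0.05. Assays named in full were the 12 largest called rises and falls with separate cards, the control RNAs, and members of 25 lists. Members and lists were chosen with earlier results of these data known, so no list was tested as a set. Alternatives were 6 other centrings, Ct limits of 35 and 32, undetermined values set to Ct 40, only assays determined on all cards, only the 4 cards compared, a block for the replicate number, a trend in eBayes, a threshold of 0.10, and fits without each card. The number of cards limits the precision. Groups came from the sample labels. Plots used matplotlib 3.10.9.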

Additional observations from a re-analysis of the deposited data

Results flagged for a closer look

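For 2 of the 77 called assays, limma called opposite changes from untreated liver at the 2 times. For miR-324-5p, the value relative to untreated liver was -1.83 at 1 week (adjusted p = 0.0263) and 1.70 at 4 weeks (adjusted p = 0.0372). The difference between the times was 3.53, and the 1-week signals were late, with a Ct of 34.87 and 35.96. For U6, the value relative to untreated liver was 2.23 at 1 week (adjusted p = 0.0111) and -1.54 at 4 weeks (adjusted p = 0.0372), and the difference was -3.77. A looser description, with both 1-week cards on one side of both untreated cards and both 4-week cards on the other, held for 25 called assays, 12 of them below untreated liver at 1 week and 13 above it.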

How the results depend on the processing

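Of the 24 assays with the largest differences, 10 stayed called when any 1 card was left out, and 7 also under every other alternative whose fit held them: miR-685, miR-324-5p, miR-203, miR-411, miR-409-3p, miR-186 and miR-410. Of these, 2 (miR-324-5p and miR-410) were not among the assays with a mean Ct below 32. Centring on the control RNAs, where the fall of U6 set the direction of the shift, gave 69 assays higher and 18 lower. Without normalization 26 were called, 6 higher and 20 lower, and with undetermined values set to Ct 40, over 261 assays, 33, 9 and 24. Leaving out a card gave 23 to 75 calls, 8 to 37 higher and 14 to 38 lower, with a lone card assumed to vary like the other groups. All other alternatives stayed within 1.5 times the counts of 77, 38 and 39. Quantile normalization gave U6, the strongest signal of every card, a difference of 0 by construction. Gaps between the replicate cards were not correlated between the 2 times (r = 0.01 over 175 assays), which cannot show whether cards were handled in pairs. The fit with the replicate number as a block called 70. No called assay turned direction. Among uncalled assays given by value, let-7f turned to -0.01 (card median), -0.32 (quantile) and -0.31 (no normalization). The value of miR-142-5p was -0.032 (centred on assays below Ct 35), -0.07 (card median), -0.37 (no normalization) and -0.12 (without the first 1-week card). Centred on the control RNAs, miR-29a was at 0.32, let-7g at 0.28, miR-148a at 0.18 and miR-29c at 0.085, and with quantile normalization miR-29a was at 0.15. U87 was at -0.11 (quantile) and -0.16 (no normalization), and snoRNA135 at -0.10 (no normalization). The cause of these changes was not tested.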

Other observations

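Called assays that are in no list and outside the 12 largest in either direction numbered 8 rises and 8 falls, and they are named here after their values were seen. Except for miR-339-5p, miR-339-3p and miR-215, whether each was still called under the alternatives or with a card left out was not examined. The falls included miR-191 and miR-425, which are cut from 1 host transcript. Values of miR-191 were 7.71 and 7.70 at 1 week and 5.63 and 5.41 at 4 weeks (-2.18 ± 0.33, adjusted p = 0.00485 by limma), and miR-425 fell by 1.15 (adjusted p = 0.0349). The epithelial miR-31 went from 5.28 and 5.42 to 3.19 and 3.44, below its untreated level of 4.46 and 4.74 (-2.03 ± 0.28, adjusted p = 0.00345). The other falls were miR-339-3p, miR-484 (-1.56), miR-137 (-1.50), miR-335-5p (-1.20) and miR-185 (-0.97). The rises were miR-339-5p, miR-296-5p (2.16), miR-652 (1.90), miR-350 (1.49), miR-215, miR-28 (1.40), miR-362-3p (1.17) and miR-10a (1.08), whose adjusted p-values were between 0.0115 and 0.0376.

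Base composition of the mature sequences was much alike in the 3 classes, with a median GC content of 43.5% in 33 matched rises, 45.5% in 33 matched falls and 45.5% in 78 matched assays that were not called.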
